A study of Mus musculus with 12 samples.

Results

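The genes described here are 10 genes that build and crosslink elastic fibres. They are the lysyl oxidase Lox, its relatives Loxl1, Loxl2, Loxl3 and Loxl4, elastin (Eln), fibrillin-1 (Fbn1), fibulin-5 (Fbln5), fibulin-4 (Efemp2) and the elastin microfibril interfacer Emilin1. They were taken by gene name from the count tables of both days, and all 10 were found among the 26728 names that both tables hold. RNA had been sequenced from primary mouse vascular smooth muscle cells of the aorta in 4 groups of 3 libraries: cells labelled NR4A3KO (KO) and WT at day 1, and KO and WT at day 14. The growth protocol gives 10 mM beta-glycerophosphate, a phosphate donor used to drive calcification in culture, for every library, whereas the treatment label names it for KO alone and reads none for WT. Genotype and treatment label therefore cannot be told apart. Strain, age, sex and the deleted part of Nr4a3 are not in the labels, and the labels do not say whether replicates came from different animals, so the tests rest on the spread between libraries, which may be technical.

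Elastic fibres give arteries their recoil. Fibrillin microfibrils form a scaffold on which tropoelastin, the product of Eln, is laid down with the help of fibulin-4 and fibulin-5, while emilin-1 sits at the border between elastin and microfibrils. Lysyl oxidases are copper enzymes that oxidise lysine side chains of elastin and collagen, after which the chains crosslink. Smooth muscle cells are the main source of elastin in the artery wall, chiefly during development.

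Library totals ranged from 17143281 to 20091307 counts for KO and 24929624 to 30105118 for WT at day 1, and from 14369933 to 18797157 for KO and 13848199 to 19519654 for WT at day 14. Nr4a3 averaged 2.08 ± 0.235 CPM (counts scaled to the library total) in KO against 4.25 ± 0.385 CPM in WT at day 1, and 49.6 ± 13.6 CPM in KO against 237 ± 19.6 CPM in WT at day 14 (SD, n = 3 each). It was thus lower in the libraries labelled KO at both days, without being absent. The transcriptomes did not pair by genotype or by day. Over 15973 genes, KO at day 1 and WT at day 14 were the pair of groups most alike, with a median correlation of log2 CPM of 0.974, against 0.921 to 0.936 for the other pairs of groups. Within groups the median was 0.975 to 0.994, lowest in WT at day 14, whose replicate 1 stood apart for several genes below. Of 9 smooth muscle markers, Acta2 (276 to 1630 CPM by group mean) and Des (480 to 813 CPM) were abundant, whereas Myh11, Tagln and Myocd averaged under 1 CPM in every group and Cnn1 reached 1.93 CPM at most.

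The sequences upstream of Loxl4, Fbln5, Fbn1 and Emilin1 are shown because Loxl4 was called in the opposite direction to Fbln5, Fbn1 and Emilin1 at both days. RefSeq windows from 250 bases before to 50 after a start site were used for 5 of the 10 members (8 windows in all). Windows on the chromosome that holds Lox were left out. The 250 bases before the first listed start site are given 5' to 3' on the gene's strand, in build GRCm38.p6, which is not the mm9 build of the counts. Capitals mark GGGCGG, the core of the Sp1 site, on either strand.
Loxl4, chr19:42612807-42613056, strand -: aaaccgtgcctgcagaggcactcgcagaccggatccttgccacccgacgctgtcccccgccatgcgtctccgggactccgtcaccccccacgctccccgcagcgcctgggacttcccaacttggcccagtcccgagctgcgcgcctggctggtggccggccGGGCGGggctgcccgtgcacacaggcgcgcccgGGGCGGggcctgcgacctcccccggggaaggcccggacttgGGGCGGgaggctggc
Fbln5, chr12:101819120-101819369, strand -: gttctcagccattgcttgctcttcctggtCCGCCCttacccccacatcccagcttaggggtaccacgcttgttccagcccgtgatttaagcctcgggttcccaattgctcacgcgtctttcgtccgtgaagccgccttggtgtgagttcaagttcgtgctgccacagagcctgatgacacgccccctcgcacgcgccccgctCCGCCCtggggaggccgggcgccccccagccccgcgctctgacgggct
Fbn1, chr2:125506439-125506688, strand -: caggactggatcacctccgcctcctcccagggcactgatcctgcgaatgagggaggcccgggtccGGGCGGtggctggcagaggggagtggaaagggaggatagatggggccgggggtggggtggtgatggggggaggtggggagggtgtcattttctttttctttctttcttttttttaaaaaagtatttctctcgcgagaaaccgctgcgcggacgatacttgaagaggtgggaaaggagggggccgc
Emilin1, chr5:30913536-30913785, strand +: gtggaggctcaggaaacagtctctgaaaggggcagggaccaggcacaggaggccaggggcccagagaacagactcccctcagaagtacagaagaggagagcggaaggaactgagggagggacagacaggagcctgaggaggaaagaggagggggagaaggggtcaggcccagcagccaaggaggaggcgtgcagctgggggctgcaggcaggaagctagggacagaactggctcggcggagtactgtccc
Loxl4 held 3 such matches, Fbln5 2, Fbn1 1 and Emilin1 0. The other window of Fbln5, not shown, held 0. The 3 windows of Efemp2, which was called lower in KO at day 1 like Fbln5, Fbn1 and Emilin1, held 2, 5 and 7. The last windows of Efemp2 overlap, and the 5 matches are among the 7. Of all 32851 promoter windows searched, without that chromosome, 35.7% hold at least 1. The NBRE motif AAAGGTCA, to which NR4A receptors bind as monomers, matched in 0 of the 8 windows and is found in 1.51% of all windows. GGAATG, the TEAD motif, and TATAAA, the TATA box, also matched in 0 of 8, against 14.7% and 13.6% of all windows. ACGTG, the core of the hypoxia response element, matched once, in the first of 3 windows of Efemp2, and occurs in 19.6% of all windows. All motifs were searched on both strands. These matches describe the letters of the windows only.

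Set against exon length, Lox was the most abundant of the 10 genes in every group and Eln the least. In KO at day 14 Lox stood at 475 ± 11.6 CPM per kilobase (SD, n = 3), rank 49 of 26209 genes with a length, and in WT at day 1 at 196 ± 7.07, rank 186. In WT at day 14 it stood at 45.1 ± 18.6, rank 999, and in KO at day 1 at 24.2 ± 3.71 CPM per kilobase, rank 2082. Fbn1 came next in 3 groups, with 15.7 ± 1.60 CPM per kilobase in KO and 50.3 ± 1.21 in WT at day 1, and 54.6 ± 3.92 in KO at day 14. In WT at day 14 Fbn1 stood at 14.4 ± 2.21, below Efemp2 at 23.5 ± 6.30 and Loxl1 at 19.0 ± 4.82 CPM per kilobase. Fbln5 was low throughout, between 0.410 and 1.68 CPM per kilobase by group mean.

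**Figure D1:**
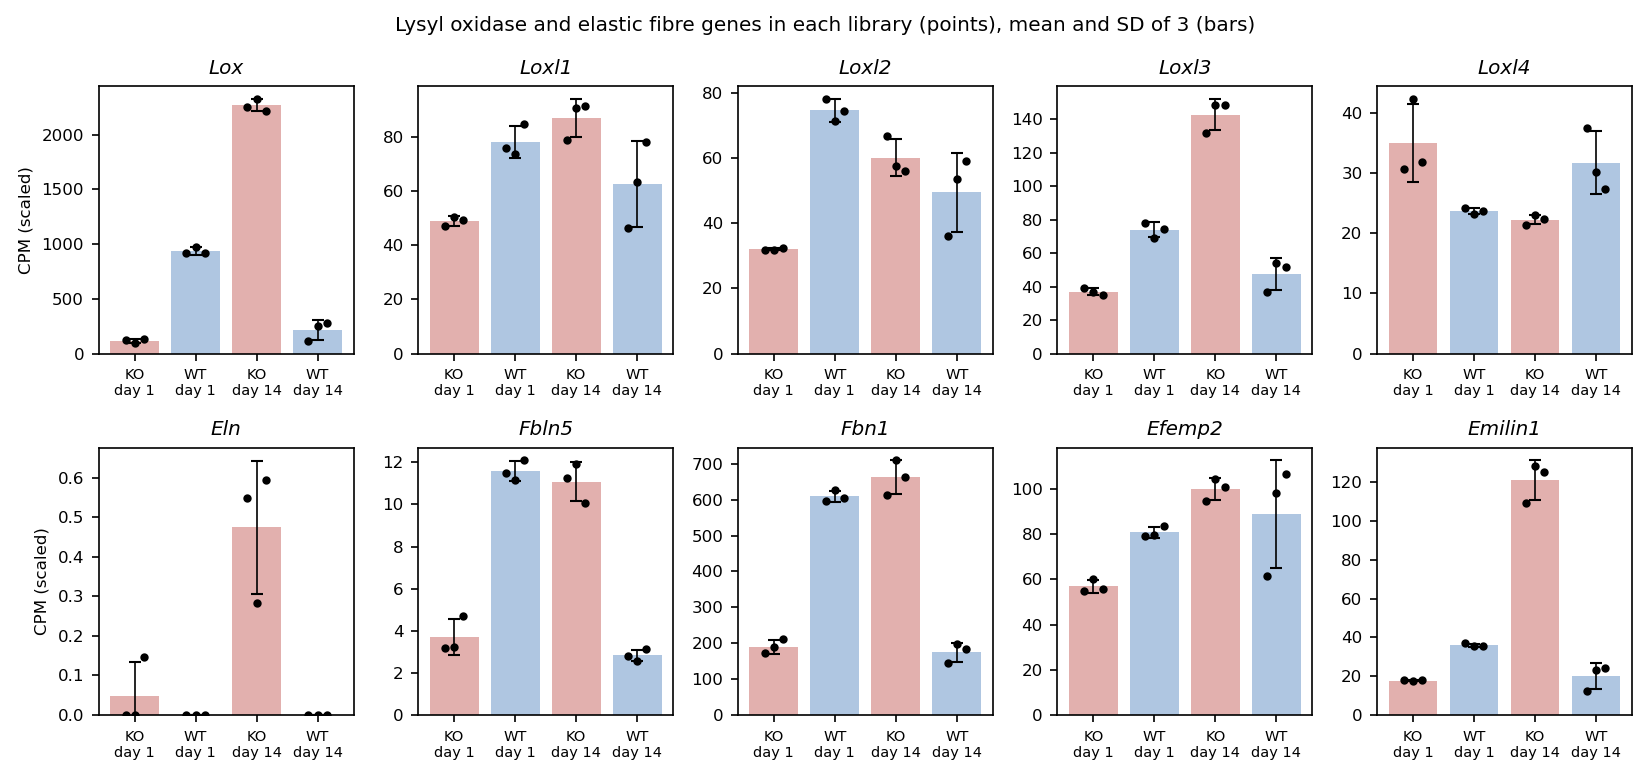
Level of each of the 10 genes in every library, as CPM scaled over all 12 libraries (vertical axis, from 0, its own range in each panel), for KO and WT at day 1 and KO and WT at day 14 (horizontal axis). Points are libraries, bars the mean of 3 and whiskers the SD. Lox runs from 96.3 CPM in a KO library of day 1 to 2328 CPM in a KO library of day 14, and Loxl4 has its 2 lowest group means where Lox has its 2 highest.

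Elastin transcripts were close to absent. Eln had 0, 0 and 3 counts in the KO libraries and 0, 0 and 0 in the WT libraries of day 1. At day 14 it had 9, 4 and 11 counts in the KO libraries and 0, 0 and 0 in the WT libraries. Every KO library of day 14 thus held some reads and no WT library of either day held any. A count of 0 allows up to 0.0388 CPM over the WT libraries of day 1 and 0.0550 CPM over those of day 14, taking 3 counts over the group as the limit, which covers counting error only. The KO level of Eln at day 14, taken as counted, was 8.88-fold that limit for WT at day 14. This ratio leaves out the counting error of the KO counts. Within KO the ratio of day 14 to day 1 was 9.20, from 24 against 3 counts (95% exact binomial interval 2.79 to 47.7, counting error only). Eln did not pass the filter on low counts and has no value in the tests below. With no filter, KO against WT at day 14 gave an adjusted p of 7.07e-04 (edgeR's quasi-likelihood test, 28780 genes). By the same test it was 0.258 for KO against WT at day 1 and 0.0679 for KO between the days. It was 0.00317 for KO at day 14 against WT at day 1, and 0.389 for KO at day 1 against WT at day 14. These values cannot be read like those of the filtered tests. At day 14, dropping the filter took the adjusted p of Loxl1 from 0.0537 to 9.09e-04, at log2 fold changes of 0.46 and 0.47. It lowered those of Bmp1, Col1a1 and Col3a1, described below, by many orders of magnitude. No conclusion on Eln is therefore drawn from the unfiltered tests, and its counts stand as a description. With 0 counts in every WT library, Eln in WT could not be tested between the days. The change of the KO effect, which rests on those WT libraries too, has no usable value.

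The day 1 libraries show how cells labelled NR4A3KO differed from WT early in culture. Of the 10 members 9 passed the filter, of which 8 were lower in KO and 1, Loxl4, was higher (edgeR's quasi-likelihood test, Benjamini-Hochberg adjusted p below 0.05 over all 15368 genes). Over all genes tested, 30.2% were called lower and 30.6% higher. The median log2 fold change was -1.01 for the 9 members and 0.01 for all genes. In bulk RNA, fewer cells that express a gene and less RNA per cell cannot be told apart.

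Lox, the founding lysyl oxidase, changed most. It stood at 119, 96.3 and 131 CPM in KO libraries and at 916, 974 and 915 CPM in WT libraries of day 1. Every KO library lay far below every WT library. The log2 fold change was -3.01 ± 0.09 (SE; adjusted p = 4.30e-11). Among its relatives Loxl2, which also oxidises collagen IV of basement membranes, averaged 32.1 ± 0.330 CPM in KO against 74.8 ± 3.49 CPM in WT (SD, n = 3; log2 fold change -1.21 ± 0.07, adjusted p = 7.22e-09). Loxl3 averaged 37.0 ± 2.17 CPM in KO against 74.0 ± 4.45 CPM in WT (-0.99 ± 0.07, adjusted p = 1.14e-07). Loxl1, which acts on elastin through fibulin-5, averaged 48.9 ± 1.76 CPM in KO against 78.1 ± 5.91 CPM in WT (-0.67 ± 0.07, adjusted p = 3.54e-06). Loxl4 went the other way, with 30.8, 42.4 and 31.9 CPM in KO libraries and 24.2, 23.2 and 23.8 CPM in WT libraries. Its groups did not overlap, and KO replicate 2 was the highest (0.57 ± 0.11, adjusted p = 7.27e-04).

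Of the fibre proteins at day 1, Fbn1, the main subunit of microfibrils, had 172, 188 and 211 CPM in KO libraries and 597, 626 and 606 CPM in WT libraries. The groups were well apart, with a log2 fold change of -1.67 ± 0.07 (adjusted p = 5.45e-10). Fbln5, which binds elastin and tethers it to cells, had 57, 58 and 96 counts in KO libraries and 274, 315 and 305 counts in WT libraries. It averaged 3.69 ± 0.858 CPM in KO against 11.6 ± 0.480 CPM in WT, a log2 fold change of -1.63 ± 0.16 (adjusted p = 2.04e-06). Emilin1 stood at 17.8 ± 0.258 CPM in KO against 35.9 ± 0.870 CPM in WT (-1.01 ± 0.08, adjusted p = 2.20e-07). The smallest fall of the 8 was that of Efemp2, the fibulin that brings lysyl oxidase to tropoelastin, with 57.0 ± 2.91 CPM in KO against 80.8 ± 2.38 CPM in WT (-0.49 ± 0.06, adjusted p = 1.99e-05). The groups overlapped for none of the 9 members, but the share of all genes without overlap was not computed.

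At day 14 the comparison of KO with WT ran the other way. Of the 9 members that passed the filter 5 were higher in KO, 1, Loxl4, was lower, and 3 had no call, against 22.7% called higher and 23.7% called lower of all 14905 genes. The median log2 fold change was 1.58 for the members and 0.00 for all genes. Lox had 2253, 2328 and 2220 CPM in KO libraries and 114, 253 and 280 CPM in WT libraries. The KO libraries were close to each other and far above WT, in which replicate 1 was the lowest (log2 fold change 3.38 ± 0.30, adjusted p = 3.57e-05). Loxl3 had 132, 148 and 148 CPM in KO libraries and 36.8, 54.3 and 51.6 CPM in WT libraries (1.58 ± 0.15, adjusted p = 4.81e-05). Its groups did not overlap.

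Loxl4 stood at 21.5, 23.0 and 22.4 CPM in KO libraries and at 37.6, 30.2 and 27.5 CPM in WT libraries of day 14. All KO libraries were below all WT libraries (-0.52 ± 0.13, adjusted p = 0.0118), though the call was lost without KO replicate 1 (adjusted p = 0.0568). Loxl1 averaged 86.9 ± 7.06 CPM in KO against 62.5 ± 15.9 CPM in WT (0.46 ± 0.17, adjusted p = 0.0537) and passed in 6 of 13 alternatives, DESeq2 among them (adjusted p = 0.0437). Loxl2 averaged 60.2 ± 5.71 CPM in KO against 49.6 ± 12.2 CPM in WT (0.27 ± 0.18, adjusted p = 0.244), and its groups overlapped.

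Among the fibre proteins of day 14, Emilin1 had 109, 128 and 125 CPM in KO libraries and 12.4, 23.2 and 24.4 CPM in WT libraries. Every KO library lay far above every WT library (log2 fold change 2.59 ± 0.23, adjusted p = 3.59e-05). Fbn1 had 614, 709 and 663 CPM in KO libraries and 145, 197 and 183 CPM in WT libraries (1.91 ± 0.13, adjusted p = 7.60e-06). Fbln5 had 185, 169 and 187 counts in KO libraries and 56, 37 and 63 counts in WT libraries, which is 11.1 ± 0.934 CPM in KO against 2.83 ± 0.269 CPM in WT (1.95 ± 0.18, adjusted p = 4.74e-05). The groups of both genes lay apart. Efemp2 averaged 99.98 ± 5.02 CPM in KO against 88.8 ± 23.9 CPM in WT (0.16 ± 0.18, adjusted p = 0.501), with WT replicate 1 at 61.7 CPM and the other WT libraries at 98.3 and 107 CPM.

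**Figure D2:**
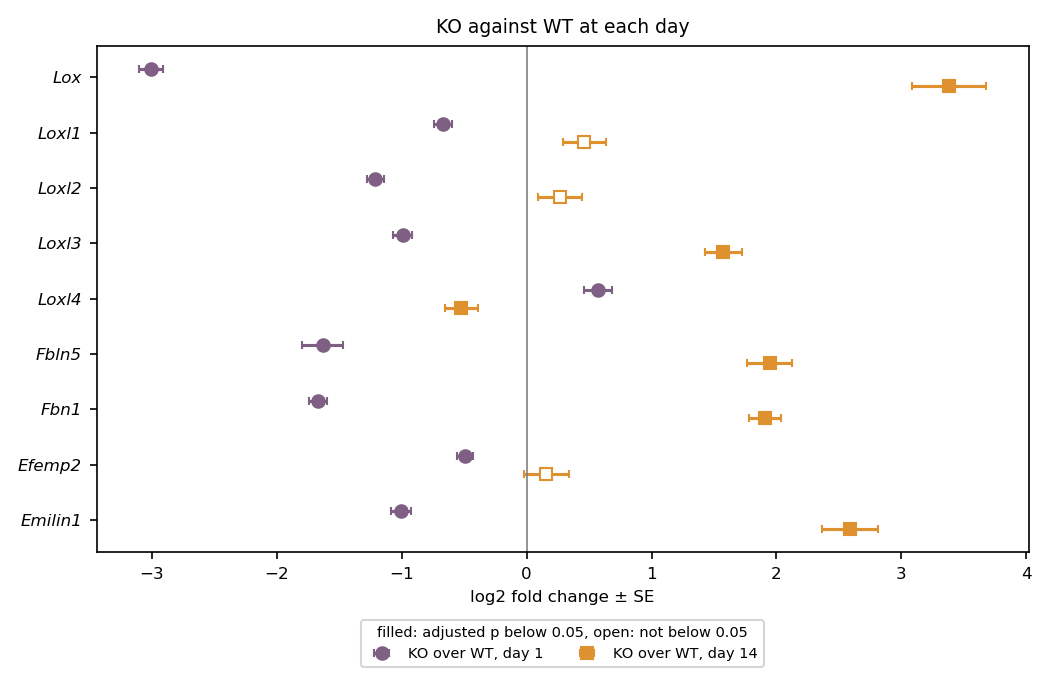
Log2 fold change of KO over WT with its standard error (horizontal axis) for the 9 tested members, at day 1 (circles) and day 14 (squares); filled symbols passed an adjusted p of 0.05. Lox stands at -3.01 and 3.38, and Loxl4 (0.57 and -0.52) is alone in lying above 0 at day 1 and below 0 at day 14.

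The difference between the KO effects of the days was itself tested in a fit of all 12 libraries, in which a shift common to one day's table cancels. All 9 tested members passed: for 8 the effect was higher at day 14 and for Loxl4 it was lower, against 29.5% and 30.5% of 15973 genes. The change was 6.41 ± 0.34 on the log2 scale for Lox (adjusted p = 4.14e-10), 3.60 ± 0.15 for Fbn1 (adjusted p = 4.23e-11), 3.60 ± 0.24 for Fbln5 (adjusted p = 6.55e-09) and 3.62 ± 0.25 for Emilin1 (adjusted p = 7.12e-09). It was 2.59 ± 0.17 for Loxl3 (adjusted p = 4.67e-09), and smaller for Loxl2, Loxl1 and Efemp2. For Loxl4 it was -1.07 ± 0.19 (adjusted p = 1.72e-04).

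Between the days, most members were higher at day 14 in KO and lower at day 14 in WT. Day and count table cannot be told apart in these contrasts, and each shares its libraries with the contrasts above. In KO, 8 members were higher at day 14 than at day 1 and Loxl4 was lower, against 26.9% and 27.9% of all genes. Lox changed by 4.29 ± 0.25 on the log2 scale (adjusted p = 2.35e-09), Emilin1 by 2.77 ± 0.18 (adjusted p = 6.39e-09) and Fbn1 by 1.80 ± 0.11 (adjusted p = 2.94e-09). In WT, 6 members were lower at day 14 and Loxl4 was higher, against 26.1% and 25.8% of all genes. Lox fell by 2.12 ± 0.23 on the log2 scale (adjusted p = 1.95e-06), Fbln5 by 2.02 ± 0.17 (adjusted p = 1.77e-07) and Fbn1 by 1.80 ± 0.11 (adjusted p = 3.29e-09). Loxl1 (-0.32 ± 0.14, adjusted p = 0.0651) and Efemp2 (0.14 ± 0.14, adjusted p = 0.446) had no call in WT. Loxl4 in WT (0.42 ± 0.13, adjusted p = 0.0149) lost its call without WT replicate 2 of day 1 (adjusted p = 0.0528).

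The crossed comparisons set groups of different genotype and different day side by side, with the same libraries as above. Of KO at day 1 against WT at day 14, 0 members were higher and 3 lower (edgeR), against 3.89% and 5.89% of all genes. At an unadjusted p below 0.05 the numbers were 0 and 5, and with DESeq2 0 and 4. Lox (-0.90 ± 0.22, adjusted p = 0.0220), Efemp2 (-0.64 ± 0.14, adjusted p = 0.0140) and Loxl2 (-0.63 ± 0.14, adjusted p = 0.0134) were called lower in KO. Without KO replicate 1 or 3 of day 1, or without WT replicate 2 or 3 of day 14, 0 were called, and 6 without WT replicate 1 of day 14. Fbn1 averaged 190 ± 19.4 CPM in KO at day 1 and 175 ± 26.8 CPM in WT at day 14 (0.12 ± 0.10, adjusted p = 0.484). Emilin1 averaged 17.8 ± 0.258 CPM in KO at day 1 and 20.0 ± 6.58 CPM in WT at day 14 (-0.16 ± 0.18, adjusted p = 0.586).

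Of KO at day 14 against WT at day 1, 3 members were higher and 0 lower, against 24.6% and 26.1% of all genes. At an unadjusted p below 0.05 the numbers were 4 and 1, and with DESeq2 3 and 0. Emilin1 (1.75 ± 0.17, adjusted p = 6.82e-07), Lox (1.28 ± 0.22, adjusted p = 2.12e-04) and Loxl3 (0.95 ± 0.12, adjusted p = 9.06e-06) were higher in KO. Fbn1 (0.12 ± 0.10, adjusted p = 0.357), Fbln5 (-0.06 ± 0.16, adjusted p = 0.759) and Loxl4 (-0.09 ± 0.13, adjusted p = 0.617) did not pass. Loxl2 (-0.31 ± 0.14, adjusted p = 0.0689) passed as lower without WT replicate 1 or 3 of day 14, or with no filter. Efemp2 (0.31 ± 0.14, adjusted p = 0.0845) passed as higher without WT replicate 1 (adjusted p = 3.05e-04) or 3 (adjusted p = 0.0462) of day 14, or with library size alone (adjusted p = 0.0469). The order of group means was KO at day 14, WT at day 1, WT at day 14 and KO at day 1, from high to low, for Lox, Loxl1, Loxl3 and Emilin1. For Loxl4 it was the reverse.

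**Figure D3:**
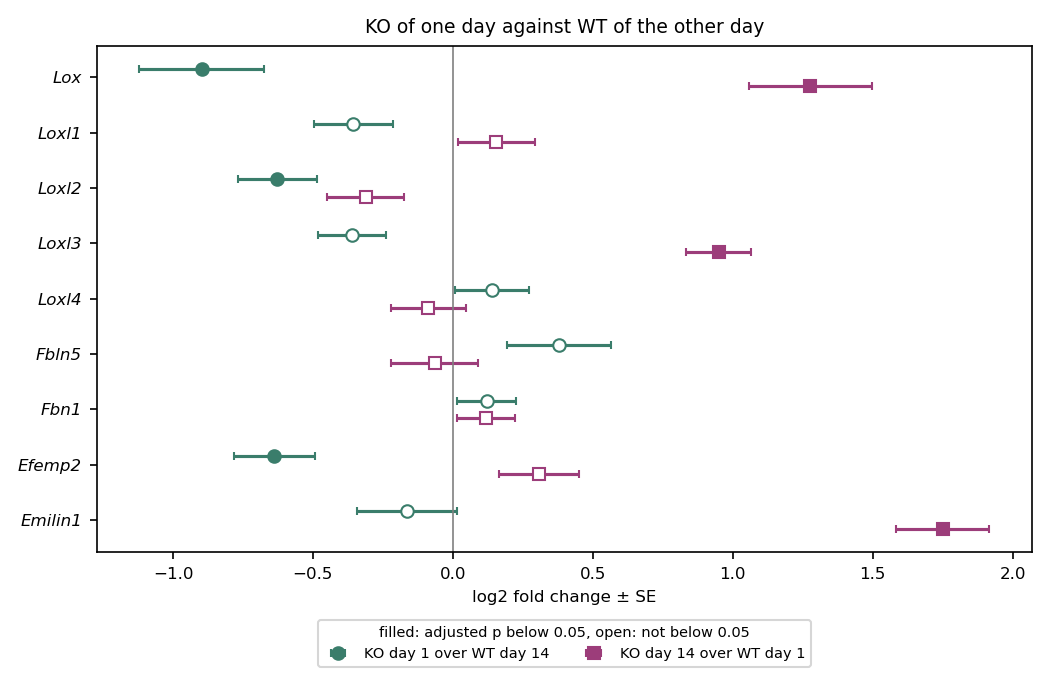
Log2 fold change with standard error (horizontal axis) of KO at day 1 over WT at day 14 (circles) and of KO at day 14 over WT at day 1 (squares) for the 9 tested members; filled symbols passed an adjusted p of 0.05. Fbn1 lies at 0.12 in both, while Emilin1 stands at 1.75 in the second and -0.16 in the first.

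The make-up of the lysyl oxidase family differed between the groups, and a share within a library does not depend on the scaling between libraries. Summed over the 5 genes per kilobase of exon, the family stood at 60.9, 59.4 and 63.6 CPM per kilobase in KO libraries and 252, 260 and 253 in WT libraries of day 1. At day 14 it stood at 542, 563 and 540 in KO libraries and 61.5, 101 and 111 in WT libraries. Lox made up 41.0%, 33.9% and 43.2% of that sum in KO libraries and 76.1%, 78.4% and 75.7% in WT libraries of day 1. At day 14 it made up 87.1%, 86.5% and 86.0% in KO libraries and 38.8%, 52.4% and 52.8% in WT libraries. The groups of a day did not overlap, with differences of -37.4 percentage points at day 1 and 38.5 at day 14 (exact permutation test, two-sided p = 0.1 each, the smallest that 3 against 3 libraries allow). Loxl4 held 13.6% ± 2.88 in KO and 2.21% ± 0.083 in WT at day 1, and 0.966% ± 0.0225 in KO and 9.16% ± 4.68 in WT at day 14 (SD, n = 3). Loxl1 held 24.2% ± 1.30 in KO and 9.29% ± 0.798 in WT at day 1, and 4.80% ± 0.364 in KO and 21.1% ± 1.96 in WT at day 14.

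**Figure D4:**
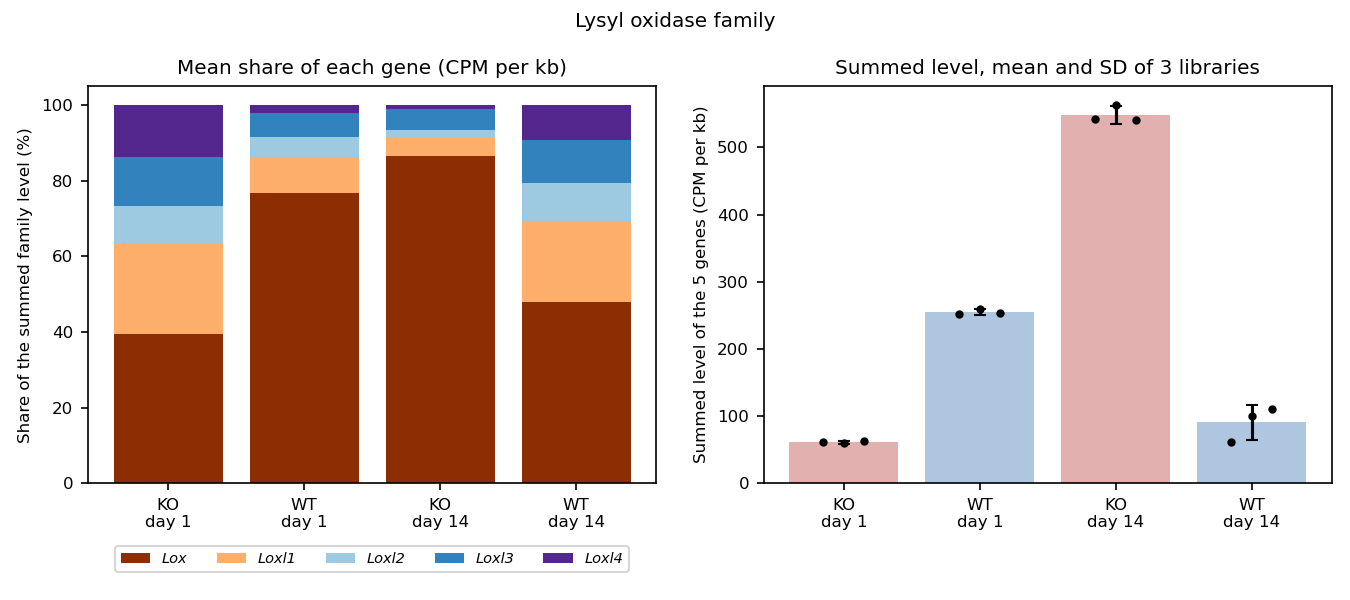
Left, mean share (%, vertical axis) of each lysyl oxidase gene in the summed family level per kilobase for KO and WT at day 1 and KO and WT at day 14; right, the summed level in CPM per kilobase, with points for libraries, bars for the mean of 3 and whiskers for the SD. The Lox share is 39.4% in KO and 76.8% in WT at day 1, and 86.5% in KO and 48.0% in WT at day 14.

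Partner genes of microfibrils and elastic fibres, a list of 21 fibulins, latent TGF-beta binding proteins, emilins and related genes, had 13 tested members at each day. At day 1, 2 were higher and 8 lower in KO (median log2 fold change -0.91), and at day 14 7 were higher and 2 lower (median 1.12). Of all genes 30.6% were called higher and 30.2% lower at day 1, and 22.7% higher and 23.7% lower at day 14. The 2 higher at day 1 became 4 with library size alone as the scaling, and 1 on leaving out any of the WT libraries in turn. The largest fall of day 1 was that of Mfap5, a microfibril-associated glycoprotein, at 3.01 ± 1.5 CPM in KO against 22.3 ± 0.263 CPM in WT (-2.86 ± 0.22, adjusted p = 1.69e-07). Ltbp4, which binds latent TGF-beta and assists elastin assembly, was the largest rise, at 72.0 ± 10.8 CPM in KO against 32.7 ± 2.79 CPM in WT (1.14 ± 0.10, adjusted p = 7.54e-07). At day 14 Fbln1, an elastin-binding fibulin, stood at 122 ± 7.31 CPM in KO against 20.6 ± 4.43 CPM in WT (2.55 ± 0.15, adjusted p = 5.03e-06). Thsd4, which promotes fibrillin-1 assembly, stood at 3.49 ± 0.167 CPM in KO against 14.1 ± 4.11 CPM in WT (-2.02 ± 0.24, adjusted p = 2.06e-04).

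Of 13 genes of lysyl oxidase maturation and copper supply, 12 were tested at day 1 (4 higher, 8 lower in KO, median -0.36) and 11 at day 14 (6 higher, 0 lower by edgeR, median 0.38). The shares of all genes were 30.6% higher and 30.2% lower at day 1, and 22.7% and 23.7% at day 14. At an unadjusted p below 0.05 the lower members of day 14 also numbered 0, as with DESeq2, while 5 of 13 alternatives gave 1 lower member, among them leaving out KO replicate 1 or 3 or WT replicate 2. Bmp1, the protease that frees active lysyl oxidase from its propeptide, went with Lox. It stood at 84.7 ± 2.57 CPM in KO against 139 ± 3.11 CPM in WT at day 1 (-0.70 ± 0.06, adjusted p = 2.17e-07), and at 410 ± 33.4 CPM in KO against 91.8 ± 14.4 CPM in WT at day 14 (2.15 ± 0.13, adjusted p = 4.86e-06). Thbs1, a matricellular thrombospondin, fell most at day 1, to 315 ± 6.34 CPM in KO against 1680 ± 22.4 CPM in WT (-2.41 ± 0.05, adjusted p = 2.22e-12), and Atox1, a copper chaperone, rose most of the members whose mean log2 CPM was 3 or more (0.51 ± 0.09, adjusted p = 3.01e-04). Below that level the list held larger rises of day 1. Postn, the matricellular protein periostin, averaged 10.9 ± 5.5 CPM in KO against 0.324 ± 0.213 CPM in WT (5.02 ± 0.44, adjusted p = 5.96e-07), and Fmod, the collagen-binding fibromodulin, 3.98 ± 1.36 CPM in KO against 0.039 ± 0.00333 CPM in WT (6.50 ± 0.51, adjusted p = 2.03e-07).

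Of 16 genes of collagen substrates and their lysine or proline hydroxylation, 3 were higher and 11 lower in KO at day 1 (median -0.52; 5 higher without KO replicate 3), and 5 were higher and 2 lower at day 14 (median 0.20). Of all genes, 30.6% were higher and 30.2% lower at day 1, and 22.7% higher and 23.7% lower at day 14. Col3a1, the chain of type III collagen, stood at 579 ± 37.4 CPM in KO against 4340 ± 81.3 CPM in WT at day 1, and at 3690 ± 361 CPM in KO against 715 ± 192 CPM in WT at day 14. Col4a2 of basement membrane collagen was the largest rise of day 1 (0.70 ± 0.07, adjusted p = 1.36e-06). Col1a1, a chain of type I collagen, was lower in KO at day 14, at 39.6 ± 6.64 CPM in KO against 119 ± 37.9 CPM in WT (-1.59 ± 0.24, adjusted p = 6.72e-04).

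Markers of adventitial fibroblasts, which also make elastic fibre proteins, also differed between KO and WT, with medians of the same sign as those of the members at both days. At day 1, 1 was higher and 7 lower in KO of 8 tested (median log2 fold change -0.90), against 30.6% and 30.2% of all genes. At day 14, 4 were higher and 2 lower of 7 tested (median 1.18), against 22.7% and 23.7%. For the change of the KO effect 6 of 9 were higher and 2 lower, against 29.5% and 30.5% of all genes. Dpt, with 0 counts in KO at day 1, was among those higher. Cd248, the surface protein endosialin, averaged 0.867 ± 0.195 CPM in KO against 8.33 ± 0.701 CPM in WT at day 1, and 7.25 ± 1.04 CPM in KO against 0.667 ± 0.0965 CPM in WT at day 14. Pdgfra, a growth factor receptor of fibroblasts, averaged 25.6 ± 2.94 CPM in KO against 44.5 ± 0.75 CPM in WT at day 1, and 75.8 ± 2.72 CPM in KO against 33.3 ± 6.33 CPM in WT at day 14. Serping1 was also called lower at day 1 and higher at day 14, whereas Cd34 and Dcn were called lower at both days and Col14a1 higher at both. The summed level was 246 to 368 CPM in KO against 579 to 588 CPM in WT at day 1, and 692 to 773 CPM in KO against 510 to 699 CPM in WT at day 14, mostly from Ly6a (203 to 624 CPM by group mean). Dpt averaged 0 CPM in KO against 0.608 CPM in WT at day 1, and 1.07 CPM in KO against 0.0167 CPM in WT at day 14. Lum was at most 0.176 CPM by group mean and had 0 counts in KO at day 14. The mesothelial list summed to 354 to 362 CPM in KO against 400 to 408 CPM in WT at day 1, and to 78.4 to 82.2 CPM in KO against 270 to 412 CPM in WT at day 14, nearly all from Msln and Krt19, while Upk3b was at or near 0. The endothelial list summed to at most 16.1 CPM and the Schwann cell list to at most 8.06 CPM. The macrophage list summed to 60.7 to 73 CPM in KO against 60.2 to 65.7 CPM in WT at day 1, and to 50.3 to 54.3 CPM in KO against 64.4 to 95.8 CPM in WT at day 14. Within it Cd68 (1.15 ± 0.12) and Lyz2 (1.56 ± 0.45) were called higher and Cd14 (-1.30 ± 0.09) lower in KO at day 1. The adipocyte list summed to 344 to 438 CPM in KO against 114 to 127 CPM in WT at day 1, and to 987 to 1160 CPM in KO against 356 to 593 CPM in WT at day 14. Most of it was Lpl; at day 14 Lpl was called higher, and Fabp4 (-1.07 ± 0.23) and Pparg (-1.96 ± 0.14) lower in KO, while all of them were higher at day 1. The smooth muscle list summed to 1320 to 1510 CPM in KO against 1040 to 1100 CPM in WT at day 1, and to 2060 to 2460 CPM in KO against 1150 to 1910 CPM in WT at day 14. Most of each sum was Acta2 and Des. Of 6 tested, 3 were called higher and 1 lower in KO at day 1 (all genes: 30.6% and 30.2%). At day 14, 2 were higher and 2 lower (all genes: 22.7% and 23.7%). Acta2 and Cnn1 were called higher at both days and Lmod1 at day 1. Smtn was called lower at both days and Des at day 14. The part of other cell types in the members' changes was not tested.

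Some members share exons with genes on the opposite strand in GENCODE M21, and the use of strand in counting is not given in the sources used here. Gm9913 overlaps 20.1% of the exon bases of Fbn1 and Htra2 11.6% of those of Loxl3. Gm27177 overlaps 5.57% of those of Loxl2 and Mus81 4.57% of those of Efemp2. Gm30003 overlaps 3.3% of those of Eln, which had only 3 counts in KO at day 1 and 24 in KO at day 14. AC161119.1 overlaps 0.628% of those of Lox. The counts of Htra2 were 146% of those of Loxl3 in KO against 50.7% in WT at day 1, and 23.7% in KO against 115% in WT at day 14. The counts of Mus81 were 33.5% of those of Efemp2 in KO against 31.3% in WT at day 1, and 21.9% in KO against 23.8% in WT at day 14. Gm9913, Gm30003 and AC161119.1 were not analysed here. Reads within such overlaps cannot be assigned with certainty.

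Across the 12 libraries, which fall into 4 groups, Lox correlated most with Loxl3 among the tested members (Pearson's r = 0.973 of log2 CPM), and Loxl3 with Emilin1 (0.982). Fbn1 and Fbln5 also ran together (0.980), whereas Efemp2 followed Fbln5 least (0.415). Loxl4 was negatively correlated with each of the other 8, from -0.927 with Lox to -0.692 with Efemp2. The genes with the pattern most like that of Lox among 9469 genes were Angpt1 (0.997), Pon3 (0.995) and Pxylp1 (0.994). Angpt1, the ligand angiopoietin-1, stood at 27.7 ± 5.77 CPM in KO against 214 ± 5.34 CPM in WT at day 1, and at 499 ± 25.9 CPM in KO against 55.2 ± 27.5 CPM in WT at day 14. These libraries share depth, table and group, and the correlations are a description only.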

How the data were processed

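The values deposited by the authors were unnormalised counts of reads for each gene name, with a separate table per day. The submitters' processing notes name the build mm9; no source used here names the aligner, the counter, the annotation or whether strand was used. Columns named CTR were taken as WT, with replicate numbers from the column names. Duplicate lines were dropped (43 at day 1, 53 at day 14), and 2 names with conflicting counts were left out of fits over both tables. Libraries held 13848199 to 30105118 counts.

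The main test was edgeR 4.0.16 (R 4.3.3) with TMM scaling, filterByExpr, the quasi-likelihood F test and Benjamini-Hochberg adjustment over all genes in the fit; calls had an adjusted p below 0.05. KO against WT used the libraries of 1 day, and the other contrasts 1 fit of all 12. CPM are scaled over the 12 libraries. Standard errors were derived from the fold change and F. Exon lengths and overlaps came from GENCODE M21 (GRCm38), promoters from RefSeq. Members and lists were chosen with earlier results of these data known. From each list the largest called rise and fall per day were named (mean log2 CPM of 3 or more), plus the genes most like Lox. Bmp1 at day 1, Timp1 and Mmp12 at day 14, Postn, Fmod and single cell type markers were named after their values were seen. Eln failed the filter, so no likeness to it was computed. Alternatives were other size factors, library size alone, DESeq2 1.42.0, other filters, a replicate block and leaving out each library. The tests were first run on simulated counts.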

Additional observations from a re-analysis of the deposited data

Results flagged for a closer look

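For all 9 tested members the effect of KO differed between the days, by the test of that difference in the fit of all 12 libraries (edgeR, adjusted p below 0.05; KO over WT at day 14 minus KO over WT at day 1). Of all 15973 genes in that fit, 29.5% were called higher and 30.5% lower by the same test. The change on the log2 scale was 6.41 for Lox, 1.15 for Loxl1, 1.5 for Loxl2, 2.59 for Loxl3, -1.07 for Loxl4, 3.60 for Fbln5, 3.60 for Fbn1, 0.67 for Efemp2 and 3.62 for Emilin1. Lox, Loxl3, Fbln5, Fbn1 and Emilin1 were called lower in KO at day 1 and higher at day 14, and Loxl4 the reverse. The share of all genes called in opposite directions at the days was not computed, so such a reversal cannot be read as particular to the members. Loxl1, Loxl2 and Efemp2 were called lower at day 1 and had no call at day 14.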

How the results depend on the processing

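Over 63 member values and 1044 alternative fits of them, 1003 kept their direction and side of the threshold, 16 lost a call, 20 gained one and 5 changed sign. The sign changes were all of values without a call, each on leaving out 1 library. Over such fits Efemp2 ran from -0.068 (without WT replicate 1) to 0.312 in KO against WT at day 14, and from -0.003 (without WT replicate 3 of day 14) to 0.357 in WT between days. In KO at day 1 against WT at day 14, Emilin1 ran from -0.417 to 0.021 (without WT replicate 3) and Loxl4 from -0.015 (without KO replicate 2) to 0.289. Fbln5 ran from -0.108 to 0.01 (without KO replicate 3) in KO at day 14 against WT at day 1. Leaving out 1 library, the lower members numbered 0 to 6 for KO at day 1 against WT at day 14, 0 to 1 for KO at day 14 against WT at day 1 and 0 to 1 for KO against WT at day 14, and the higher members 0 to 2 in WT between days. With no filter, 1 member was lower in KO at day 14 against WT at day 1. The causes were not tested. Over all genes, 621 were called higher and 941 lower for KO at day 1 against WT at day 14, and 576 to 5538 in all without 1 library, the most without WT replicate 1 of day 14. Library size alone shifted the median of all genes by 0.12 (log2) at day 1; the change for Efemp2 then lost its call (0.46, adjusted p = 0.0602), and partner genes higher at day 1 numbered 4.

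Same-numbered KO and WT libraries did not deviate together (r from -0.0221 to -0.00838 at day 1 and -0.0141 to 0.0175 at day 14). These values show no pairing by number but cannot exclude it, because a small shared effect could leave r near 0. With the replicate block, 9090 genes were called at day 1 and 6716 at day 14, with 1 member higher and 8 lower at day 1, and 6 higher (Loxl1 added, adjusted p = 0.0147) and 1 lower at day 14. A block nested in day could not be fitted to contrasts between days; a block shared by both days, added after the data were seen, changed the calls by 1 member at most.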

Other observations

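Elastin-degrading proteases and their inhibitors, 15 genes, had 3 higher and 6 lower in KO of 10 tested at day 1 (median log2 fold change -0.33), and 3 higher and 3 lower of 12 tested at day 14 (median 0.16; 5 higher without WT replicate 1). The share called among all genes was 30.6% higher and 30.2% lower at day 1, and 22.7% and 23.7% at day 14. Mmp12, the macrophage metalloelastase, stood at 18.1 ± 4.21 CPM in KO against 0.769 ± 0.196 CPM in WT at day 1 (SD, n = 3; log2 fold change 4.54 ± 0.23, adjusted p = 3.09e-09 by edgeR). Among macrophage markers Cd68 averaged 48.6 ± 6.69 CPM in KO against 21.9 ± 3.17 CPM in WT at day 1 (1.15 ± 0.12, adjusted p = 2.40e-06), Lyz2 was also called higher (1.56 ± 0.45, adjusted p = 0.00847) and Cd14 lower (-1.30 ± 0.09, adjusted p = 3.30e-08). Ptprc averaged 0.477 ± 0.553 CPM in KO and had 0 counts in WT at day 1. Adgre1 and Csf1r averaged 0.197 and 0.48 CPM in KO at day 1 and were not tested there. At day 14 Mmp12 was called lower in KO, at 4.09 ± 1.14 CPM against 10.3 ± 2.26 CPM in WT (-1.33 ± 0.25, adjusted p = 0.00252 by edgeR). Cd68 was also called lower at day 14 (-0.92 ± 0.19, adjusted p = 0.00374), and Csf1r higher (1.36 ± 0.29, adjusted p = 0.00473). The part of these markers' cells in the level of Mmp12 was not tested. Mmp9, a gelatinase that also cleaves elastin, stood at 23.1 ± 4.6 CPM in KO against 0.182 ± 0.174 CPM in WT at day 14 (6.79 ± 0.41, adjusted p = 5.12e-06). The inhibitor Timp1 was lower in KO at day 1 (-0.64 ± 0.05, adjusted p = 3.32e-07) and stood at 719 ± 34.2 CPM in KO against 186 ± 24.7 CPM in WT at day 14. Timp3, the inhibitor that binds to matrix, stood at 50.8 ± 9.08 CPM in KO against 235 ± 22.7 CPM in WT at day 14 (-2.22 ± 0.14, adjusted p = 6.80e-06).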
